A study of Mus musculus with 8 samples.

Results

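Esrrb, Nr5a2 and Nr6a1 are the genes of a trio of orphan nuclear receptors, and the data described here are the ATAC-seq peaks around them in mouse embryonic stem cells. A peak was taken when its centre lay inside the GRCm38 span of a gene or within 50 kb of it. This gave 94 of the 134407 peaks in the deposited table: 44 at Esrrb, 20 at Nr5a2 and 30 at Nr6a1. ATAC-seq uses the Tn5 transposase to insert adapters into open chromatin, so that reads pile up where DNA is accessible. The cells were the wild-type E14 line, an established embryonic stem cell line, grown on gelatin in serum with LIF. The 4 control libraries came from cultures without inhibitor, and the 4 paused libraries from cultures given INK128 at 200 nM for 24 h. INK128 blocks the kinase mTOR, and the submitters use it to induce pausing, a dormant state of the pluripotent cell. Each library was made from 50000 live cells. The labels do not say that the libraries of a group came from separate cultures, so the p-values measure the spread between these samples, which may be technical.

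Orphan nuclear receptors are DNA-binding transcription factors of the nuclear receptor family for which no natural ligand was known when they were named. Esrrb (oestrogen-related receptor beta) and Nr5a2 (also called Lrh-1) are activators of the naive pluripotency network in mouse embryonic stem cells, and both bind a single extended site with the core AAGGTCA. Nr6a1 (also called Gcnf) is a repressor that binds direct repeats of a related sequence and is known for silencing pluripotency genes when the cells differentiate.

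The authors scaled the reads of each sample by a single factor, and all peaks are 201 bp wide. Reads in peaks ranged from 4434037 to 21161767 per library, with control replicate 1 the deepest and the other 7 at no more than 7238935. The Esrrb peaks together held between 1350 and 6609 reads in a library, the Nr5a2 peaks between 347 and 1708, and the Nr6a1 peaks between 1049 and 4867. A peak with 0 reads in control replicate 3, the shallowest library, allows up to 3 reads, a value of 5.08. Intervals and limits of this kind cover counting error only. As a check on the label, all 8 embryonic stem cell genes examined had a peak within 2 kb of a gene end, with control means from 54.1 (Dppa4) to 314 (Pou5f1). Of the markers of other cells, 3 of 4 extraembryonic endoderm genes, 4 of 4 trophoblast genes and 4 of 4 fibroblast genes had one too, with control means from 53.1 to 115, from 22.8 to 188 and from 34.4 to 98.1 and paused means from 57.9 to 130, from 21.3 to 208 and from 29.2 to 120. Gata4 had none. Accessibility does not measure expression, so these peaks do not show which cells were present, and their part in the results was not tested.

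The first question was how many peaks at each gene changed in paused cells. At Esrrb 8 of 44 tested peaks were called higher in paused samples and 1 lower. At Nr5a2 1 of 17 was higher and 0 lower, and at Nr6a1 0 of 30 were higher and 3 lower. A call is a Benjamini-Hochberg adjusted p under 0.05, over the 127402 peaks whose mean value reached 10, from limma-trend on the log2(value + 1) scale. Of all tested peaks, 11.0% were called higher and 2.91% lower. The same shares were 18.2% and 2.27% at Esrrb, 5.88% and 0% at Nr5a2, and 0% and 10% at Nr6a1. The median log2 change was 0.21 at Esrrb, 0.23 at Nr5a2 and -0.07 at Nr6a1, and 0.10 over all tested peaks. Changes are to be read against that shift, which scaling by TMM removes. After TMM rescaling the medians were 0.10, 0.12 and -0.18, with -0.01 over all peaks, and after a correction for peak strength 0.11, 0.17 and -0.19, with -0.01 over all peaks. In a bulk library, a greater share of cells with open DNA and more open DNA in each cell cannot be told apart.

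**Figure D1:**
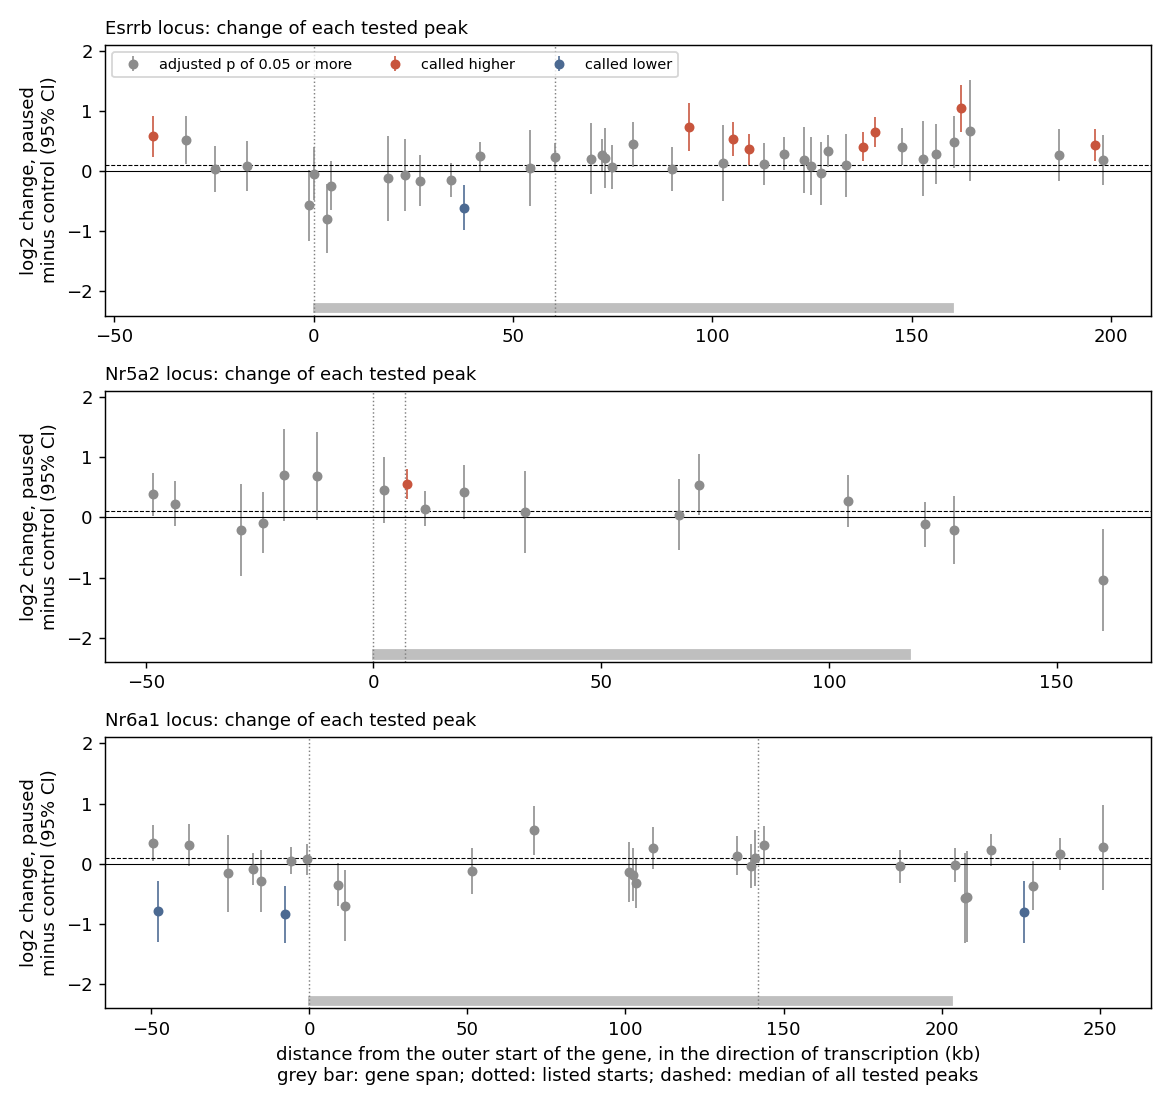
Log2 change of each tested peak (paused minus control, with its 95% confidence interval from limma-trend) against the distance in kb from the outermost listed start of the gene, in the direction of transcription, for Esrrb, Nr5a2 and Nr6a1. Red points are called higher, blue points lower; the red points at Esrrb lie mostly past the inner start, and the 3 blue points at Nr6a1 lie outside the gene span.

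The counts moved with scaling and with single libraries. The Esrrb count of peaks called higher was 4 after TMM rescaling (5.77% of all peaks called higher), 3 after the strength correction (5.1% of all peaks), 5 in edgeR with TMM (7.13%) and 2 in DESeq2 (3.06%). It was 5 without control replicate 1 and 4 without paused replicate 4, where 10623 and 8980 peaks of the whole table were called higher in place of 13958. The Nr6a1 count of peaks called lower was 3 after TMM rescaling (4.28% of all peaks called lower) and after the strength correction (3.5% of all peaks), 5 in edgeR with TMM (5.54%) and 1 in DESeq2 (1.49%). It was 0 without control replicate 3, and 1 without control replicate 1, without paused replicate 1 or without paused replicate 4. The whole table had 3702 lower calls, and in these 4 fits 2314, 2331, 3127 and 2587. The Nr5a2 peak stayed the single one called higher under each alternative run.

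Esrrb lies on the forward strand of chromosome 12 (86361117 to 86521628, 160512 bp). RefSeq lists an outer start at the gene's end and an inner start at 86421644. The gene table used gives spans without exons, so exon and intron positions were not analysed here. The 250 bases before each start are shown because the peaks at those starts differed widely in strength (GRCm38.p6, RefSeq, forward strand, 5′ to 3′). Each of these peaks lies mostly past its start, outside the stretch shown. Capitals would mark a receptor motif, and neither stretch holds one.
Esrrb outer start, chr12:86360867-86361116: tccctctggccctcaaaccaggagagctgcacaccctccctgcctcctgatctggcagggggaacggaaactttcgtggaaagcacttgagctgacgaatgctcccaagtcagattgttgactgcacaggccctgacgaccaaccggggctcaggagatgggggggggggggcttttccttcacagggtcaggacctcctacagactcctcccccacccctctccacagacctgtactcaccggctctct
Esrrb inner start, chr12:86421394-86421643: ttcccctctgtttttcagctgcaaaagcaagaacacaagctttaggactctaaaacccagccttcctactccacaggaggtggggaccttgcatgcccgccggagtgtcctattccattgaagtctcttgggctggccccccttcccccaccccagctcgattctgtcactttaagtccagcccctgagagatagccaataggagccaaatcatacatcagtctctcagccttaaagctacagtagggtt

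The peak at the outer start (chromosome 12, 86361100 to 86361300) was weak, with control values of 30.4, 29.9, 32.2 and 25.0 in replicates 1 to 4 and paused values of 29.99, 29.97, 34.1 and 21.1. The groups overlapped, and the log2 change was -0.04 (SE 0.22, 95% confidence interval -0.48 to 0.39, limma-trend adjusted p = 0.923). Its centre is 83 bp past the start and 28 bp from the start of Gm40483, a long noncoding RNA gene that overlaps the Esrrb start. The peak at the inner start (86421558 to 86421758), 14 bp past that start, was stronger than 90.8% of tested peaks. Its control values were 135, 142, 154 and 148 and its paused values 169.6, 161, 178 and 169.9. All 4 paused values lay above all 4 control values, as they did for 13% of all tested peaks, and the difference did not pass the test (log2 change 0.23, SE 0.12, limma-trend adjusted p = 0.188). This peak lies outside the rule for named peaks and was added because of its start.

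The strongest rise by adjusted p at Esrrb was inside the gene, 140.7 kb past the outer start (86501739 to 86501939). The control values were 169, 146, 207 and 190, and the paused values 251, 308, 239 and 320. The lowest paused value lay above the highest control value, and the mean was 178 ± 26.3 in control and 279.5 ± 40.2 in paused cells (SD, n = 4), a log2 change of 0.65 (SE 0.12, adjusted p = 0.000289 by limma-trend). It was also the strongest of the 44 peaks. It was called under each of the 17 alternatives, with a log2 change from 0.44 to 0.73 and an adjusted p of at most 0.00998. A neighbour 2.8 kb nearer to the start (86498918 to 86499118), the next strongest, had control values of 173, 166, 132 and 159 and paused values of 189, 239.8, 192 and 214. Its log2 change was 0.41 (SE 0.12, limma-trend adjusted p = 0.0182). That call ended without control replicate 3 (adjusted p = 0.0893), without paused replicate 2 (adjusted p = 0.0835) or without paused replicate 4 (adjusted p = 0.059), after TMM rescaling or the strength correction, and in edgeR with TMM and DESeq2 (adjusted p from 0.0944 to 0.292).

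The largest rise at the 3 loci lay just past the far end of Esrrb, 162.3 kb from the outer start and outside any annotated gene (86523320 to 86523520). Control values were 23.5, 25.1, 30.5 and 19.1, and paused values 54.2, 44.2, 49.7 and 56.2. The groups were far apart, with means of 24.5 ± 4.70 and 51.1 ± 5.37 (SD, n = 4) and a log2 change of 1.04 (SE 0.20, adjusted p = 0.000352 by limma-trend). Its call held under each of the 16 alternatives that tested it, with a log2 change from 0.93 to 1.15. In the authors' deposited table the log2 fold of this peak was 0.84, with an FDR of 0.000107. A further peak beyond the gene (86556949 to 86557149) had control values of 93.7, 97.9, 103 and 80.8 and paused values of 114, 118, 143 and 131, with a log2 change of 0.43 (adjusted p = 0.0239 by limma-trend). That call ended without control replicate 1 or 4 or without paused replicate 3 or 4, with an adjusted p from 0.0524 to 0.0876. It also ended after TMM rescaling (0.106), after the strength correction (log2 change 0.23, adjusted p = 0.275), in edgeR with TMM (0.0827) and in DESeq2 (0.244).

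Another 3 peaks inside Esrrb and 1 before it were called higher. That 94.1 kb past the outer start (86455128 to 86455328) had control values of 29.4, 28.7, 25.4 and 32.3 and paused values of 43.8, 48.9, 38.8 and 66.8. Paused replicate 4 was the highest, and without it the log2 change went from 0.73 to 0.58 and the call ended (limma-trend adjusted p = 0.00929 and 0.0739). The peak at 105.2 kb (86466226 to 86466426) had control values of 69.1, 60.9, 62.7 and 80.8 and paused values of 94.6, 112, 86.9 and 103, with a log2 change of 0.53 (SE 0.14, adjusted p = 0.00994 by limma-trend). The groups did not overlap at either peak. DESeq2 called neither (adjusted p = 0.0915 and 0.141), and the strength correction ended the call at 105.2 kb (log2 change 0.35, adjusted p = 0.115). The peak at 109.2 kb (86470227 to 86470427) was at the edge of the threshold (log2 change 0.37, limma-trend adjusted p = 0.0489), and was called under 4 of 17 alternatives. It was not called without any 1 of 7 libraries, with an adjusted p from 0.0581 to 0.187, and only leaving out paused replicate 1 kept the call among those fits. The peak 40.3 kb before the gene (86320710 to 86320910) had control values of 36.99, 44.2, 38.95 and 38.2 and paused values of 58.8, 64.7, 62.1 and 52.7. Its log2 change was 0.58 (SE 0.17, limma-trend adjusted p = 0.0163), with 0.0543 without control replicate 1 and 0.0508 without paused replicate 2. That call also ended after TMM rescaling (adjusted p = 0.0617), after the strength correction (0.0966) and in DESeq2 (0.187). A weaker neighbour of that peak, 32.0 kb before the gene (86329022 to 86329222), had a log2 change of 0.52 and was the largest change not called among Esrrb peaks at or above the median strength of the table (limma-trend adjusted p = 0.0703).

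**Figure D2:**
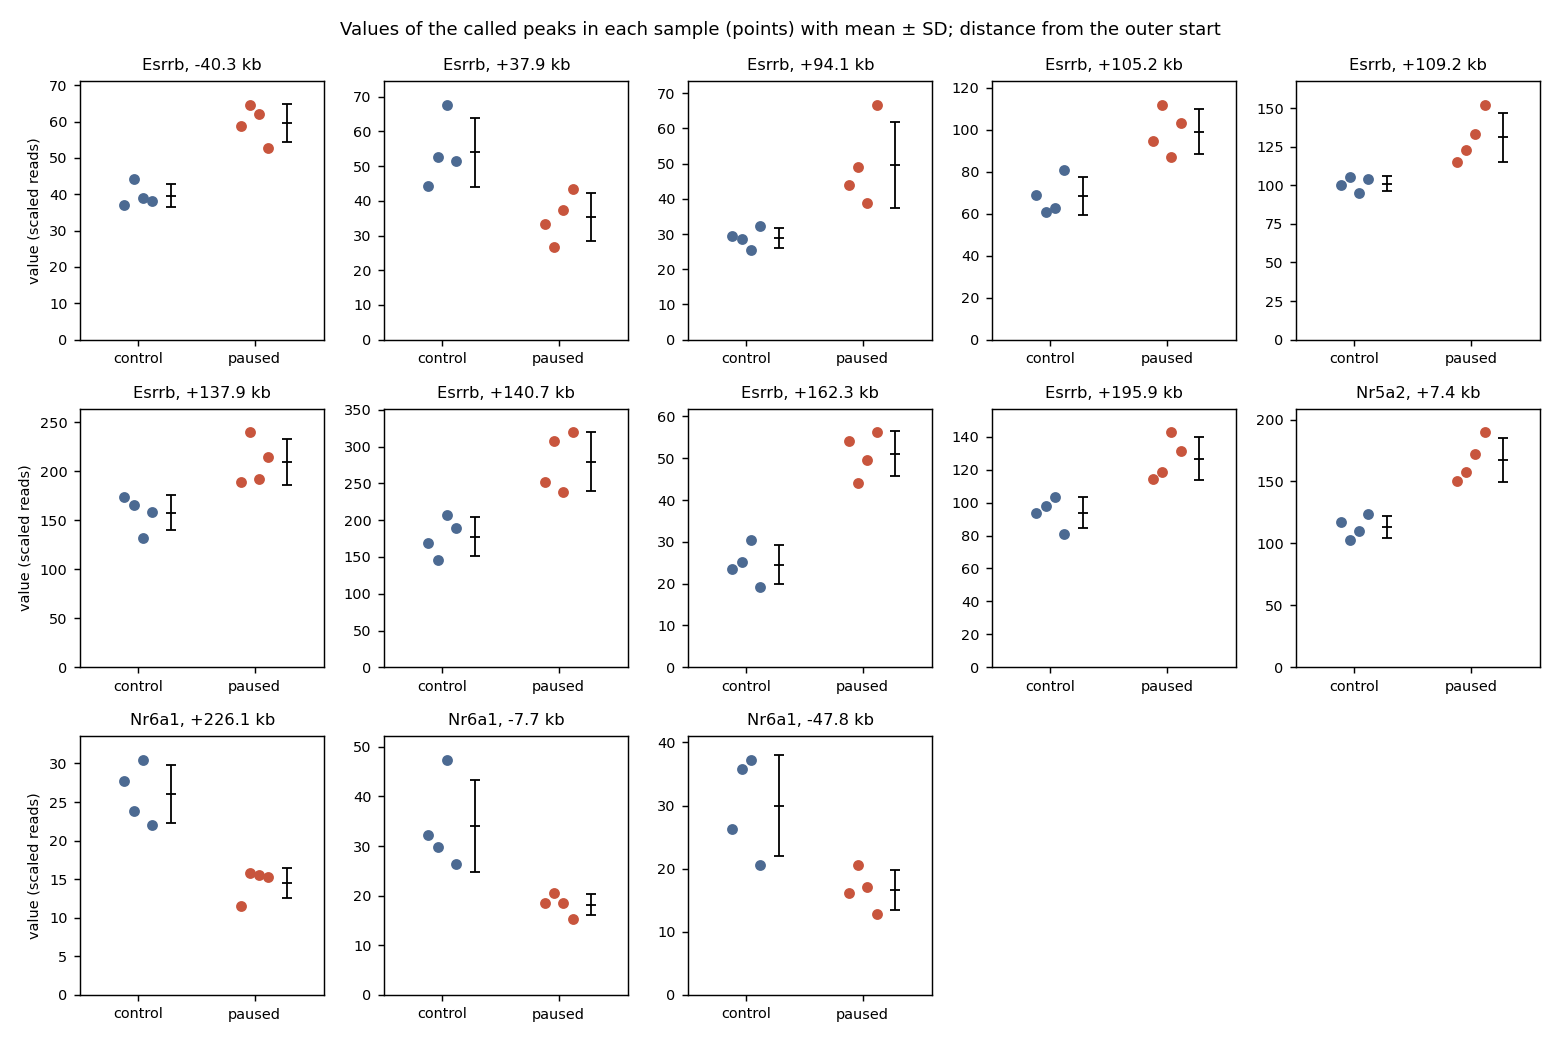
Value of each of the 13 called peaks in the 4 control (blue) and 4 paused (red) samples, in reads divided by the authors' factor of the sample, with the mean ± SD in black; each panel gives the gene and the distance from its outer start in kb. No panel shows an overlap between the groups, and the 4 panels in which paused samples are lower are 1 Esrrb peak and 3 Nr6a1 peaks.

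The single fall called at Esrrb in the main fit lay between the starts, 37.9 kb past the outer one (86398868 to 86399068). Control values were 44.3, 52.6, 67.7 and 51.4, and paused values 33.5, 26.8, 37.2 and 43.4, so that the lowest control value and the highest paused value nearly touched. The log2 change was -0.61 (SE 0.19, limma-trend adjusted p = 0.0242), and the call ended without control replicate 3 (adjusted p = 0.106) or without paused replicate 2 (adjusted p = 0.0917), and in DESeq2 (adjusted p = 0.0806). Near the outer start, 2 weak peaks had all 4 paused values below all 4 control values, as did 4.36% of all tested peaks, without passing the test. One (86359873 to 86360073) had control values from 15.5 to 23.7 and paused values from 9.23 to 15.2, with a log2 change of -0.57 (limma-trend adjusted p = 0.194). The other (86364379 to 86364579) had control values from 20.7 to 28.8 and paused values from 7.89 to 20.2, with a log2 change of -0.79 (limma-trend adjusted p = 0.0533). After TMM rescaling, 2 of the 10 peaks between the starts were called lower, beside 4.28% of all peaks. The count was also 2 in edgeR with TMM (5.54% of all peaks) and with a block on the replicate number (3.63%).

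Along Esrrb the sign of the change thus went with position on the deposited scale. The division by listed starts was chosen after the values were seen, and it is a description with no test. Of the 10 peaks between the starts, 2 had a change above 0 (median -0.14). Of the 23 peaks from the inner start to the gene end, 22 did (median 0.23), as did 6 of the 6 beyond the gene (median 0.46) and 4 of the 5 before it (median 0.08). Over all tested peaks 61.3% had a change above 0. After TMM rescaling, with 49.3% above 0 over all peaks, the counts were 1 of 10, 18 of 23, 6 of 6 and 2 of 5. The median before the gene then turned to -0.02. After the strength correction, with 48.6% above 0 over all peaks, the counts were 4 of 10, 19 of 23, 6 of 6 and 2 of 5. The count between the starts was then near the share of all peaks, with a median of -0.19. The median value of a peak was 32.1 between the starts and 43.8 from the inner start on.

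**Figure D3:**
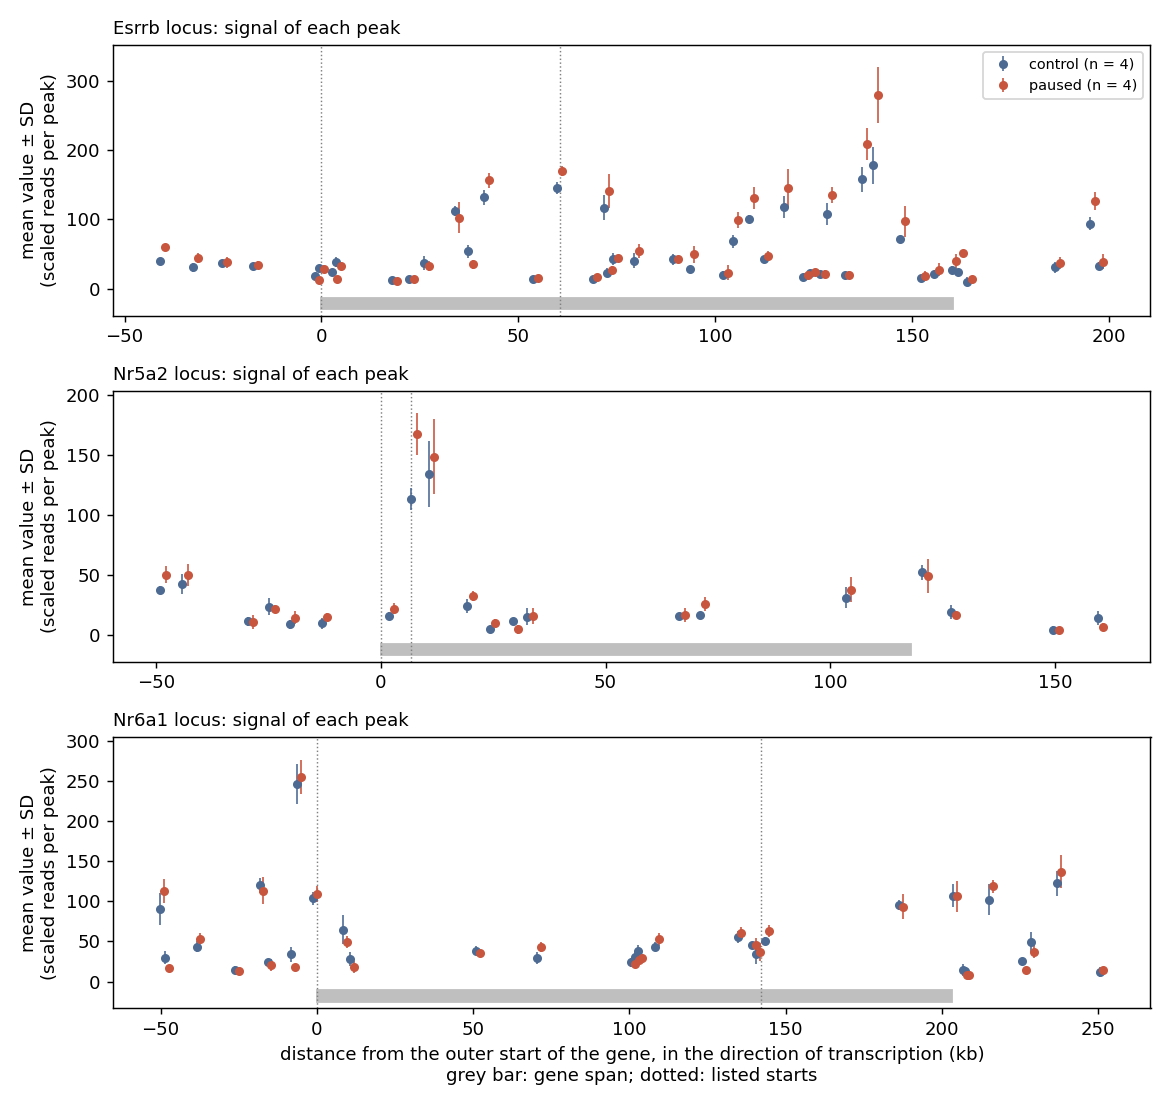
Mean value ± SD of each peak in control (blue) and paused (red) samples, in reads divided by the authors' factor of the sample, against the distance in kb from the outer start in the direction of transcription; the grey bar is the gene span and dotted lines are the listed starts. The tallest Esrrb peaks stand 137.9 and 140.7 kb past the outer start, the tallest Nr5a2 peaks near its inner start, and the tallest peak of the Nr6a1 window before the gene, next to the start of Olfml2a. The 2 colours are set slightly apart sideways so that both can be seen.

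Nr5a2 lies on the reverse strand of chromosome 1 (136842562 to 136960448, 117887 bp), with an inner start at 136953630. The 250 bases before that start are shown because the one called peak of the gene lies next to it (GRCm38.p6, RefSeq, reverse strand, 5′ to 3′; the stretch holds no receptor motif).
Nr5a2 inner start, chr1:136953631-136953880: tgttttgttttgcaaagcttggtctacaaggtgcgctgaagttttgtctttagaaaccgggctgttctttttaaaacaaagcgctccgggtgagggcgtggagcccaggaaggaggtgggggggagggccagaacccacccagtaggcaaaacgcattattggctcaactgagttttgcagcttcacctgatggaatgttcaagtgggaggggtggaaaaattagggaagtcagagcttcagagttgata

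The called peak (chromosome 1, 136952991 to 136953191) is centred 539 bp past the inner start. Its control values were 118, 103, 110.1 and 123 and its paused values 150.0, 158, 172 and 190. Every paused value lay above every control value, and the mean was 113 ± 9.01 in control and 167 ± 17.5 in paused cells (SD, n = 4), a log2 change of 0.56 (SE 0.12, adjusted p = 0.00189 by limma-trend). The call held under each of the 17 alternatives, with a log2 change from 0.35 to 0.61 and an adjusted p of at most 0.0468. The only other strong peak inside the gene, 11.3 kb past the outer start (136949046 to 136949246), was the strongest of the 20. Its control values were 99.6, 166, 141 and 131 and its paused values 151, 114, 189 and 141. These overlapped widely (log2 change 0.15, 95% confidence interval -0.14 to 0.44, limma-trend adjusted p = 0.532). Hence the pair of strong peaks, about 4 kb apart, did not both pass the test, and the difference between them was not tested.

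The outer start of Nr5a2 had no peak within 2 kb. The nearest, 2388 bp past it (136957960 to 136958160), was weak, with control values from 10.8 to 19.1 and paused values from 17.6 to 26.4. The groups overlapped there, and the log2 change was 0.46 (limma-trend adjusted p = 0.261). Before the gene, the peak 48.5 kb from the outer start (137008821 to 137009021) had control values from 35.3 to 40.8 and paused values from 44.2 to 60.5, with no overlap. Its log2 change of 0.39 did not pass the test (limma-trend adjusted p = 0.137). A peak deeper in the gene (136888793 to 136888993) was alike, with control values from 15.5 to 18.6, paused values from 19.6 to 33.98 and a log2 change of 0.54 (limma-trend adjusted p = 0.141). All 8 tested peaks inside Nr5a2 had a change above 0 on the deposited scale, beside 61.3% of all tested peaks, and the 3 tested peaks past its far end had one below 0. The farthest of these 3 (136800162 to 136800362) had the largest fall at the 3 loci, a log2 change of -1.04 (limma-trend adjusted p = 0.0876). It was weak (mean value 10.6), and its control values from 6.77 to 20.3 overlapped paused values from 2.34 to 10.4. One of the 3 was called lower in edgeR with TMM (5.54% of all peaks) and with the authors' factors (3.63%). Of the 7 from the inner start to the gene end, 5 were above 0 after TMM rescaling, beside 49.3% of all peaks. Without the filter that stretch had 8 of 9 above 0. With 17 tested peaks in all and 1 called, neither count is a test.

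The filter on weak peaks left 3 of the 20 Nr5a2 peaks untested. For 1 of them (136930343 to 136930543) the control values were 9.68, 13.1, 10.2 and 14.7 and the paused values 8.07, 6.31, 0 and 4.69, with no overlap. It was called lower when no filter on weak peaks was used, the 1 lower call at Nr5a2 under that setting. In paused replicate 3 a value of 0 allows up to 4.65, the value of 3 reads. The remaining 2 had means under 10 in all 8 samples together and overlapping groups.

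Nr6a1 lies on the reverse strand of chromosome 2 (38723369 to 38926461, 203093 bp), with an inner start at 38784515. Its window also reaches into Nr5a1, an orphan receptor gene that neighbours it, and Olfml2a, so that a peak there can belong to either gene. Inside the span of Nr6a1 lies Nr6a1os, a long noncoding RNA gene (38815972 to 38921863) that holds 8 of the peaks. Those 8 can likewise belong to either gene. The 250 bases before the inner start are shown because they hold the one match to a receptor motif among the 6 listed starts of the trio (GRCm38.p6, RefSeq, reverse strand, 5′ to 3′; capitals mark TGACCTT, the core AAGGTCA on the opposite strand, 91 bases before the start at its first letter).
Nr6a1 inner start, chr2:38784516-38784765: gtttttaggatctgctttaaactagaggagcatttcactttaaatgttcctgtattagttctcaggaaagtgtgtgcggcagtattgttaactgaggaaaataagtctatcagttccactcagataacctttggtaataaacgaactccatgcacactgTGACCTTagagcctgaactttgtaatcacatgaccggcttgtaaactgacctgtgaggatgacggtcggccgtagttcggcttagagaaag

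No peak inside the Nr6a1 span was called in the main fit, out of 13 tested. Of the 11 between its starts, edgeR called 1 lower with TMM (5.54% of all peaks) and 1 with the authors' factors (3.63%). A fit with a block on the replicate number called 1 lower and 1 higher (3.63% and 13.6% of all peaks). The peak next to the outer start (chromosome 2, 38927035 to 38927235), 674 bp before it, had control values of 100.2, 96.7, 103 and 115 and paused values of 123, 109, 104 and 101. The groups overlapped, with a log2 change of 0.07 and a 95% confidence interval from -0.19 to 0.33 (limma-trend adjusted p = 0.753), and the sign turned under other scalings. The peak next to the inner start (38785235 to 38785435), 820 bp before it and added for that reason, had control values from 23.9 to 52.5 and paused values from 25.4 to 46.6. Its log2 change was 0.09 (limma-trend adjusted p = 0.825), also with a sign that turned under other settings. The strongest peak of the window (38932048 to 38932248) lies 168 bp from the start of Olfml2a and had control values of 229.5, 223, 278 and 257 and paused values of 258, 226, 278 and 260.1, which overlapped (log2 change 0.05, limma-trend adjusted p = 0.804). The 95% confidence interval ran from -0.17 to 0.27. The next strongest (38688827 to 38689027), in the pseudogene Adgrd2-ps, had a log2 change of 0.16 (limma-trend adjusted p = 0.446).

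The 3 falls called in the main fit in the Nr6a1 window lay outside the gene itself. The largest (38934077 to 38934277) was inside Olfml2a, 2197 bp from the start of that gene. Control values were 32.2, 29.9, 47.4 and 26.5 and paused values 18.5, 20.5, 18.6 and 15.2, with a log2 change of -0.84 (SE 0.24, limma-trend adjusted p = 0.0136). Control replicate 3 was the highest, and without it the adjusted p was 0.0821. The peak inside Nr5a1 (38700215 to 38700415) had control values of 27.7, 23.9, 30.5 and 22.0 and paused values of 11.5, 15.8, 15.5 and 15.2 (log2 change -0.80, SE 0.26, adjusted p = 0.0312 by limma-trend). The peak in the pseudogene Gm13474 (38974196 to 38974396) had control values of 26.3, 35.8, 37.3 and 20.6 and paused values of 16.2, 20.5, 17.1 and 12.9 (log2 change -0.79, SE 0.25, limma-trend adjusted p = 0.03). All 3 were weak peaks with no overlap between the groups, although at the last the lowest control and the highest paused value nearly touched. The call at the Nr5a1 peak ended without control replicate 1 or 3 or paused replicate 1 or 4 (adjusted p from 0.0523 to 0.0961). That at the Gm13474 peak ended without control replicate 1, 2 or 3 or paused replicate 1 or 4 (adjusted p from 0.0515 to 0.109). DESeq2 called neither (log2 change -0.97 and -0.95, adjusted p = 0.0687 and 0.0635).

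Inside Nr6a1, on the opposite strand, lie the genes of 2 microRNAs, Mir181a-2 (chromosome 2, 38852735 to 38852810) and Mir181b-2 (38853830 to 38853918). Their main mature products are shown because the largest uncalled change among Nr6a1 peaks at or above the median strength of all peaks in the table (32.3) was beside them. They share the seed in capitals (bases 2 to 8, RefSeq, 5′ to 3′).
mmu-miR-181a-5p: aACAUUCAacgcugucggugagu
mmu-miR-181b-5p: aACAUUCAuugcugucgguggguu
That peak (38855230 to 38855430) is centred 1456 bp from the middle of the Mir181b-2 hairpin, and it also lies inside Nr6a1os. Control values were 37.3, 33.4, 23.7 and 23.5 and paused values 34.6, 50.5, 45.0 and 43.4. The groups overlapped through paused replicate 1, and the log2 change was 0.56 (SE 0.20, limma-trend adjusted p = 0.0587). Without paused replicate 1 the adjusted p was 0.0409, without control replicate 1 it was 0.0453, and with a block on the replicate number 0.046. Only these 3 of 16 alternatives called the peak, and 13 did not. The adjusted p was 0.151 after TMM rescaling, 0.164 after the strength correction, 0.322 in edgeR with TMM and 0.487 in DESeq2.

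Strong peaks tended to be higher in paused samples across the whole table, so the loci were also read by strength. Of the 45273 tested peaks whose mean value reached 50, 18.7% were called higher and 1.35% lower. At Esrrb 5 of 12 such peaks were called higher, at Nr5a2 1 of 3 and at Nr6a1 0 of 11, and none of these 26 was called lower. Their median log2 change was 0.35 at Esrrb, 0.15 at Nr5a2 and 0.07 at Nr6a1, against 0.19 for all strong peaks. Of all tested peaks with a mean value under 50, 6.67% were called higher and 3.76% lower. Here Esrrb had 3 of 32 higher and 1 lower, Nr5a2 0 of 14 in either direction, and Nr6a1 0 of 19 higher and 3 lower. The medians were 0.11, 0.25 and -0.18, against 0.01 for all weak peaks. The Nr6a1 median was thus under that of all peaks in both classes. This is a description, and no test was made over the members of a locus.

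**Figure D4:**
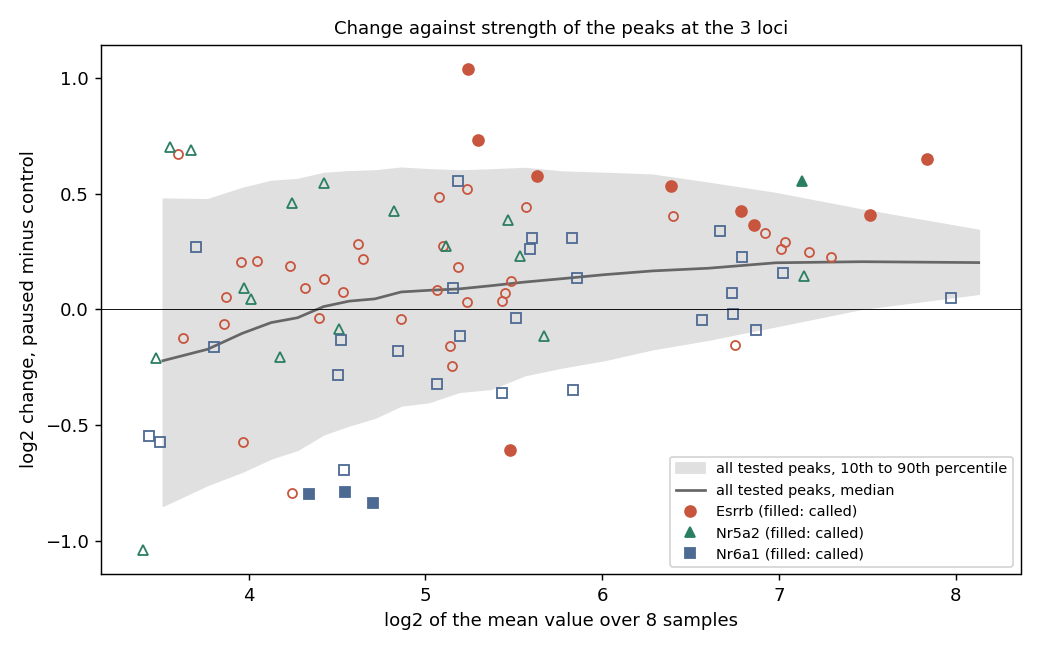
Log2 change of the tested peaks of the 3 loci against the log2 of their mean value over the 8 samples, with the median (line) and the 10th to 90th percentile (grey) of all tested peaks in 20 classes of strength. Filled symbols are called peaks; the 5 strong filled Esrrb circles lie above the line, and the 3 filled Nr6a1 squares are weak peaks below the grey band.

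Summed over its peaks, the Esrrb locus had values of 2285, 2279, 2286 and 2294 in the control samples and 2539, 2855, 2756 and 2992 in the paused samples. The paused values lay apart from the control values and spread far more widely, with means of 2286 ± 6.20 and 2785 ± 191 (SD, n = 4), 21.9% more. The near-equal control sums depended on the scaling, since with TMM the SD was 20.4 in control and 154 in paused samples. For Nr5a2 the control sums were 590.5, 664, 588 and 598 and the paused sums 684, 677, 807 and 722, 18.4% more, again without overlap. For Nr6a1 the control sums were 1683, 1719, 1776 and 1759 and the paused sums 1809, 1713, 1812 and 1606, with means 0.0551% apart and full overlap. All peaks of the table together were 11.5% higher in paused samples on this scale. With TMM scaling the differences were 12.9%, 9.66% and -7.19%, against 3.39% for all peaks, and as a share of all signal 9.21%, 6.03% and -10.2%. On these scales the Nr5a2 groups overlapped, and for Nr6a1 they were apart as a share of all signal. These sums are given without a test.

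**Figure D5:**
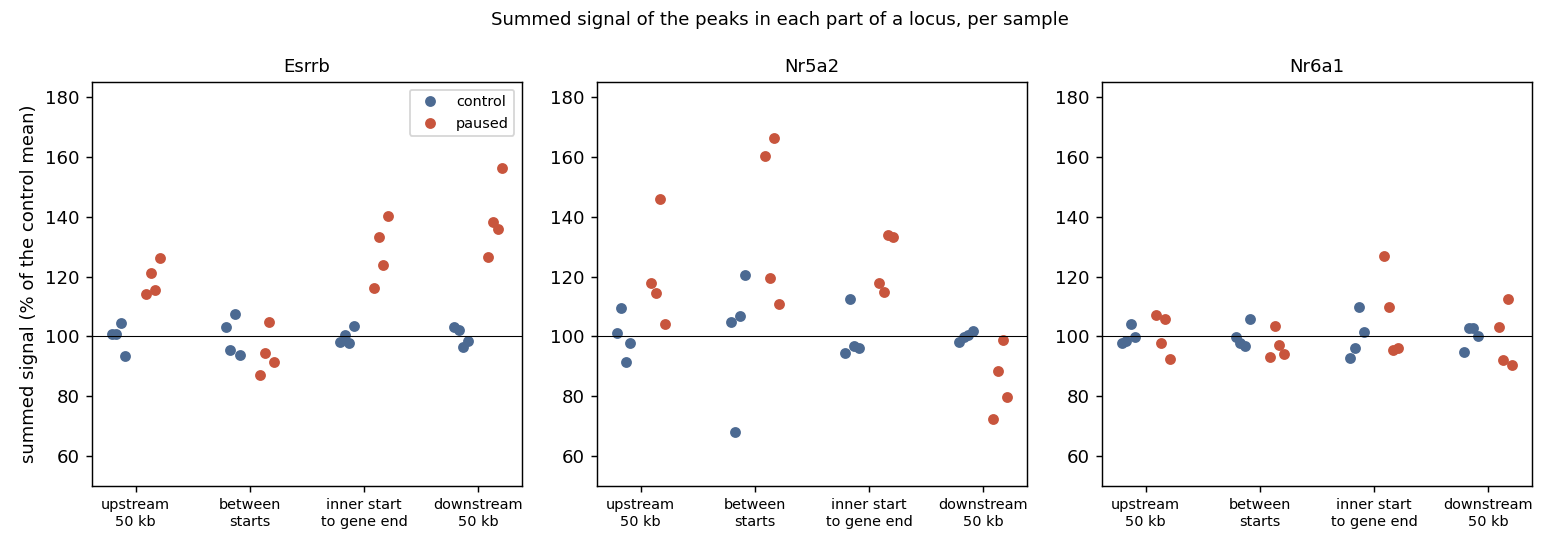
Summed value of the peaks in each part of a locus, as a percentage of the control mean, in the 4 control (blue) and 4 paused (red) samples, for the 50 kb before the gene, the stretch between its starts, the stretch from the inner start to its end, and the 50 kb beyond it. At Esrrb the last 2 parts are 28.4% and 39.3% higher in paused samples with no overlap, while the stretch between the starts overlaps.

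By parts, the Esrrb sum from the inner start to the gene end went from 1436 ± 38.5 to 1844 ± 152, and that between the starts from 469.9 ± 30.1 to 444 ± 35.0 (SD, n = 4, control and then paused). The first groups were apart, also with TMM scaling (19.04% higher) and as a share of all signal (15.1% higher). The stretch between the starts was -5.58% different with overlap, and -15.5% without overlap as a share of all signal. Past the far end of Nr5a2 the paused sums, from 65.8 to 89.99, met the control sums, from 89.2 to 92.6, only through paused replicate 3. There the groups were apart with TMM scaling (-21.5%). Per kb of window, the control level was 8.77 at Esrrb, 2.8 at Nr5a2 and 5.72 at Nr6a1, and the paused level 10.7, 3.32 and 5.72. The order of the loci was thus the same in both groups, with Esrrb highest. Esrrb had 16.9 peaks per 100 kb, more than 82.7% of the 21883 protein-coding genes taken with the same margins, Nr6a1 9.90 and Nr5a2 9.18, close to the median of 8.84.

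The genes whose log2 summed signal was most like that of each locus were sought over the 8 samples. They were taken among protein-coding genes on other chromosomes with at least 10 peaks. The median of all protein-coding genes with at least 10 peaks was first subtracted from each sample. For Esrrb they were Sp2 (Pearson r = 0.980), Zbed6 (0.978) and Atg14 (0.975), of 12804 genes compared. For Nr5a2 they were Pip4p2 (0.980), Arhgap10 (0.977) and Tmem121b (0.962), of 12489, and for Nr6a1 Sh3bgrl2 (0.955), Fads3 (0.951) and Mtfp1 (0.947), of 12207. These values describe the same 8 libraries, which share depth and scaling, and with so many genes 92, 22 and 25 of them had r over 0.9.

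The receptors' own motifs were looked for on both strands from 250 bases before to 50 after each start that RefSeq lists, 2 for each gene. TCAAGGTCA, the extended site, was in none of the 6 stretches and in 0.423% of all 32851. Its core AAGGTCA, which that site contains, was in 1 of 6, before the inner start of Nr6a1, and in 4.72% of all. The direct repeat of AGGTCA with no gap, which contains the core, was in none of the 6 and in 2 of all. The share of G and C was 60% and 55.3% at the outer and inner start of Esrrb, 42% and 49% at those of Nr5a2, and 42.3% at both of Nr6a1, with a median of 52.7% over all. A match is a description of letters, not a binding site, and peaks away from these starts were not searched.

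The rest of the family and its partners gave the setting for these counts. Of 22 other orphan nuclear receptor genes, all were matched, and their windows held 301 peaks after the 9 that Nr5a1 shares with Nr6a1 were left out. Of the 289 tested, 26 (9.0%) were called higher and 9 (3.11%) lower, with a median log2 change of 0.10. Nr0b1 (Dax1), which is known as a partner of the pluripotency network and is X-linked, had 2 of 4 tested peaks higher. The one with the smallest adjusted p (chromosome X, 86193510 to 86193710) had a mean of 17.0 ± 2.63 in control and 48.3 ± 5.88 in paused cells (SD, n = 4), a log2 change of 1.46 (adjusted p = 1.24e-05 by limma-trend). Nr2f2, a regulator of mesoderm and vascular genes, had 3 of 14 higher, and Nr4a1, an immediate early gene, 3 of 25 higher and 1 lower. Among the closest relatives of Esrrb, Esrra had 2 of 17 higher and 0 lower, and Esrrg 0 of 17 higher and 1 lower. These genes were singled out after their values were seen.

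For 16 genes of coregulators, which nuclear receptors recruit to activate or repress, 332 of 350 peaks were tested, with 19 (5.72%) higher, 10 (3.01%) lower and a median of 0.00. Ncoa3, a coactivator that Esrrb is known to bind in these cells, had 2 of 34 higher and 0 lower. The corepressor gene Ncor1 had 4 of 36 higher and 0 lower. Neither list was given a test of its own, and its share of calls is to be read beside the 11.0% and 2.91% of all peaks.

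The authors' deposited table lists an FDR under 0.05 for 11 of the 94 peaks, 9 higher and 2 lower, beside 9.19% and 1.8% of all peaks in that table. All 11 were also called here, from the same values, so the overlap is not independent. The 2 peaks called here without such an FDR were the Esrrb fall (FDR 0.0826 in the authors' deposited table) and the fall inside Nr5a1 (FDR 0.0501 there).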

How the data were processed

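ATAC-seq of 4 control and 4 paused E14 libraries was deposited as 1 table of 134407 peaks. Per the submitters' processing notes, the build was mm10 and the tools included FastQC, Trim Galore, Bowtie2 2.4.1, MACS3 3.0.3 and DiffBind 3.16.0; read filters, the Tn5 offset and the scaling method are not given in the sources used here. The deposited signal is reads divided by 1 factor per sample by the authors, since in each column 100% were whole multiples of 1 step, within 0.006. The authors also deposited log2 means and folds, p-values and FDR per the file headers and these are printed only as the authors' deposited table.

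The main test was limma-trend (limma 3.58.1, R 4.3.3) with no covariates on log2(value + 1), for peaks whose mean value reached 10. Such fold changes understate weak peaks. Alternatives were a pseudocount of 0.1, no filter, a mean of at least 50, TMM rescaling, a loess correction on strength (span 0.3), edgeR 4.0.16 and DESeq2 1.42.0 on the recovered reads, a replicate block, each sample left out, and other windows. The fits were tested on simulated data with 1 fixed spread that was not estimated from these samples. There limma-trend recovered 139 of 200 planted changes, 49 with a log2 change of 1 and 90 with 1.5, with 2 false calls. Smaller changes were not simulated, so the share of them that the fit would miss is not known.

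Named peaks were, per locus, that nearest the outer start within 2 kb, the 5 smallest adjusted p among calls, the 2 strongest, the largest called fall, and the largest uncalled change of at least median strength. Other called peaks and the inner-start peaks were added after their values were seen. So were peaks named for groups that do not overlap, for the filter or for a large fall. Members, lists and rules were chosen with earlier results of these data known. Sequences are from RefSeq tables of GRCm38.p6; peak sequences were not used here.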

Additional observations from a re-analysis of the deposited data

Results flagged for a closer look

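Outliers were sought in 52 groups of 4 values. These were 23 of the peaks named in the text and the sums of the 3 loci, in either condition. Other peaks named in the text were left out. In 2 groups, 1 sample had a gap to the next, relative to the range of the group, that exceeded Dixon's 95% limit. Chance gives about 1 in 20. One was the peak inside Nr5a1 (chromosome 2, 38700215 to 38700415), where paused replicate 1 had a value of 11.5 and the other paused samples lay between 15.2 and 15.8. Without that sample the log2 change was -0.70 and the limma-trend adjusted p 0.0761. The other was the summed signal of Nr5a2, where control replicate 2 had 664 and the other control samples lay between 588 and 598.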

How the results depend on the processing

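Over the whole table, 13958 peaks were called higher and 3702 lower. The higher count moved to 7352 after TMM rescaling, 6497 after the strength correction, 9084 in edgeR with TMM and 3902 in DESeq2, and the lower count to 7058 in edgeR with TMM, 1892 in DESeq2 and 751 among peaks with a mean of at least 50. With 1 sample left out, the higher count ran from 8980 (without paused replicate 4) to 12689 and the lower from 2314 (without control replicate 3) to 3871. At Esrrb the 8 higher calls became 4 after TMM rescaling, 3 after the strength correction, 5 in edgeR with TMM, 2 in DESeq2 and 5 in the gene span alone, and ran from 4 to 9 with 1 sample left out. The 1 lower call at Esrrb became 2 after TMM rescaling, in edgeR with TMM and with the replicate block, and 0 in DESeq2 and among peaks with a mean of at least 50, with 0 to 2 when 1 sample was left out. At Nr5a2 the higher count was 1 in each fit with 1 sample left out, and the 0 lower calls became 1 without a filter and in both edgeR tests, with 0 to 1 when 1 sample was left out. At Nr6a1 the 0 higher calls became 1 with the replicate block, with 0 to 1 when 1 sample was left out. The 3 lower calls at Nr6a1 became 5 in edgeR with TMM, 1 in DESeq2, 0 among peaks with a mean of at least 50, 0 in the gene span alone and 1 with a margin of 20 kb, with 0 to 3 when 1 sample was left out. The counts for the gene span alone and for a margin of 20 kb come from fewer peaks being counted in the main fit. A mean of at least 50 left out weaker peaks, among them those called lower at Esrrb and Nr6a1. Without a filter, the lower call at Nr5a2 was a peak inside the gene that the main fit did not test. In both edgeR tests the lower call was another peak, 1 of the 3 tested past the far end of that gene. For the other settings the cause was not tested.

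The summed signal differed by 21.9% at Esrrb (12.9% with TMM, 9.21% as a share of all signal, 18.8% to 25.4% with 1 sample left out), by 18.4% at Nr5a2 (9.66%, 6.03%, 13.8% to 22.0%) and by 0.0551% at Nr6a1 (-7.19%, -10.2%, -1.43% to 2.53%). Among the same 23 peaks as in the outlier check, signs turned only at peaks that were not called. These were the outer start of Esrrb (0.00319 without control replicate 3, 0.0958 without paused replicate 4, range -0.127 to 0.0958 with 1 sample left out), the strongest Nr5a2 peak (-0.0571 after the strength correction) and the Adgrd2-ps peak (-0.0431 after it). At the inner start of Nr6a1 the log2 change was -0.0125 after TMM rescaling, -0.00833 after the strength correction, -0.0602 without control replicate 1, and -0.0253 and -0.0335 without paused replicates 2 and 3, with up to 0.308 without control replicate 3. At its outer start it was -0.0353 after TMM rescaling, -0.122 after the strength correction, -0.0138 in edgeR with TMM and -0.0183 in DESeq2, and at the Olfml2a start -0.0584, -0.157, -0.0408 and -0.0426 in the same order. Over those 23 peaks, 304 results kept direction and side of the threshold, 52 lost the call, 6 gained it and 17 turned sign. The deviations of same-numbered samples had correlations of 0.079, 0.0358, 0.133 and 0.0395 for numbers 1 to 4, all above 0 but 1 alone over 0.1. The labels tie the numbers to nothing shared, so the samples were not treated as paired. Not every sample correlated best with its own number. The alternative fit with a replicate block gave 17371 higher and 4623 lower calls in all. At Esrrb these were 9 and 2, at Nr5a2 1 and 0, and at Nr6a1 1 and 4. Depth limits weak peaks: 1 read was worth 1.69 in control replicate 3.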
